A study of Rattus norvegicus with 20 samples.

Results

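The comparison set serum-derived astrocytes against high-density progenitors of the rat. Its members were 12 of the 20 arrays of the series. The 6 FBS arrays carried low-density (LD) CCg progenitors that had been treated with FBS, the usual abbreviation of fetal bovine serum, and were labelled as astrocytes derived in this way. The 6 HD arrays carried progenitors labelled only as high-density. The labels do not expand CCg and do not mention it for the HD arrays. Arrays with the same number in their titles were averaged as log2 values and count as 1 culture in what follows, which gave 4 FBS cultures, numbered 1 to 4, and 3 HD cultures, numbered 1, 2 and 4. Nothing in the labels states that these numbers mark independent cultures, and the spread behind each p-value is that between these samples, which may be technical. The other 8 arrays, 4 of untreated LD cells (3 cultures) and 4 of LD cells given RA/Fsk for neuronal derivation (4 cultures), helped to estimate the spread. RA and Fsk are the usual abbreviations of retinoic acid and forskolin. The FBS cells came from low-density cells and the reference cells were kept at high density, so serum, density and CCg cannot be told apart in this comparison. Strain, age, dose and duration of treatment are not given in the labels.

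Astrocytes are the glial cells that take up glutamate and potassium around synapses, convert glutamate to glutamine, and supply neurons with metabolites. Neural progenitors divide and carry intermediate filament proteins such as nestin and vimentin, and serum is a long-used way to turn cultured progenitors into astrocytes. Serum carries growth factors, bone morphogenetic proteins, lysophospholipids and lipoproteins, and is known for switching on early response genes and the actin programme driven by serum response factor.

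Each array gave a linear intensity for 8799 probe sets, and the mean of an array without its lowest and highest 2% of values lay between 200.3 and 200.5. Arrays of 1 HD culture correlated at r = 0.965 to 0.975 and arrays of different HD cultures at 0.955 to 0.964, over log2 values of all probe sets. The FBS arrays 1a and 1b correlated at 0.975, arrays 3 and 3r at 0.951, and arrays of different FBS cultures at 0.956 to 0.979. The median SD over probe sets was 0.24 log2 between the FBS cultures and 0.26 between the HD cultures. The 5′ to 3′ ratio of the GAPDH control probe sets, a measure of RNA integrity, differed by 0.01 log2 between FBS and HD (exact permutation test, two-sided, p = 0.9429), and that of beta-actin by -0.14 (p = 0.0571). The bacterial hybridisation controls, added in equal amounts, differed by -0.19 log2 (exact permutation p = 0.0286, the smallest that 4 against 3 cultures can give). With the GAPDH ratio as a covariate 1926 probe sets changed, beside the 1832 described next, and the part of the other controls in the results was not tested.

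Of 8740 probe sets, 1832 changed between FBS and HD, which is 21.0%. A probe set counted as changed at a Benjamini-Hochberg adjusted p under 0.05 in limma, over all probe sets. The share was 11.3% (984 probe sets) for those that rose in FBS and 9.70% (848) for those that fell. Large differences ran upward: 99 probe sets rose and 5 fell by at least 8-fold on the log2(intensity + 4.99) scale, and 661 rose and 399 fell by at least 2-fold. FBS and HD cultures had separate ranges in 32.4% of probe sets, 1549 higher and 1287 lower in FBS. Of the 1832 changed probe sets 1789 had separate ranges, so in a changed gene separate ranges add little to the call. With 1 probe set for each of 4736 genes, the brightest, 22.4% changed, 12.1% upward and 10.3% downward, and the median difference over genes was 0.05. These gene shares are the background for the lists that follow. The lists were chosen with earlier results of these data known, and some genes belong to several lists. A list's share beside the background is therefore a description and not a test. The split depends on the scaling: after each array was centred on its median, the median of all probe sets moved from 0.03 to -0.16, and 722 rose and 1138 fell, 38.8% upward in place of 53.7%. All differences are FBS minus HD in log2 units with their SE, and culture values are intensities, given in the order HD 1, 2 and 4 and FBS 1 to 4. Unless stated, a gene's values come from its brightest probe set. In these bulk samples, fewer cells of a type and less RNA per cell cannot be told apart.

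In some probe sets the FBS cultures were set apart from the other 3 groups as well. In 7.63% of probe sets (667) all FBS cultures lay above all 10 other cultures, and in 5.55% (485) all lay below. This held for 596 of the 984 probe sets that rose against HD and for 424 of the 848 that fell. The changed probe sets were selected for a difference from HD, so part of this follows from the selection. No such count was made for the other groups.

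The 12 largest rises ran from 6.64 for Anxa1 to 4.47 for Ass1, by the rule for naming genes, which took the probe set with the largest difference. Anxa1, a phospholipid-binding protein induced by glucocorticoids, measured 4.43, 6.74 and 2.64 in the HD cultures and 1097, 876, 844 and 957 in the FBS cultures (6.64 ± 0.38 log2, adjusted p = 2.4e-09). Igfbp2, a carrier of insulin-like growth factors, measured 9.88, 9.87 and 41.1 in the HD cultures and 1376, 2026, 1829 and 2019 in the FBS cultures (6.37 ± 0.35 log2, adjusted p = 1.6e-09). Fn1, the matrix glycoprotein fibronectin, measured 31.9, 32.7 and 26.0 in the HD cultures and 2239, 1929, 2012 and 3414 in the FBS cultures, 66.6-fold higher in FBS (6.06 ± 0.29 log2, adjusted p = 3.5e-10). In all 3 the FBS cultures lay far above the HD cultures, and all 5 probe sets of Fn1 rose. Cryab, a small heat shock protein found in reactive astrocytes, had the smallest SE of the 24: 188, 181 and 178 in the HD cultures and 6468, 5429, 6740 and 7199 in the FBS cultures (5.10 ± 0.17 log2, adjusted p = 1e-11). Cd44, the hyaluronan receptor that marks astrocyte precursors, measured 28.8, 30.8 and 27.5 in the HD cultures and 686, 902, 860 and 874 in the FBS cultures (4.61 ± 0.21 log2, adjusted p = 3e-10). Neither gene's groups overlapped.

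Nog, the secreted bone morphogenetic protein inhibitor noggin, rose 37.7-fold (16.6, 30.0 and 11.5 in the HD cultures and 1154, 836, 856 and 691 in the FBS cultures). The smooth muscle proteins Myl9, a myosin light chain, and Tagln, an actin-binding protein also called SM22, rose by 5.24 and 4.74. Itga7, a laminin-binding integrin subunit, rose by 4.81 in the probe set named by the rule and by 1.71 and 2.01 in its brightest and its dimmest. Lcat, which esterifies cholesterol on lipoproteins and is made by astrocytes, rose by 4.74, and Ass1, an enzyme of arginine synthesis, by 4.47. Sparc, a matricellular protein of astrocytes, rose in 3 of its 4 probe sets, by 5.74 in the one named by the rule (26.9, 28.1 and 51.6 in the HD cultures and 1838, 2171, 2133 and 2239 in the FBS cultures). Its brightest probe set differed by 0.57 ± 0.26 and did not pass (adjusted p = 0.152). Several of these genes were dim in HD, so the size of their difference depends on the offset added before the logarithm. The brightest probe set of Anxa1, at 6.08, ran from 4.72 to 6.50 over the alternatives.

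The 12 largest falls were smaller, from -3.77 for Coro1a to -2.72 for Pik3r1. Coro1a, an actin-binding protein best known from leukocytes, measured 133, 139 and 108 in the HD cultures and 4.19, 3.20, 3.40 and 8.40 in the FBS cultures (-3.77 ± 0.33 log2, adjusted p = 3.7e-07). Top2a, the topoisomerase of dividing cells, measured 991, 778 and 1167 in the HD cultures and 65.9, 55.0, 65.2 and 138 in the FBS cultures (-3.59 ± 0.45 log2, adjusted p = 1.7e-05), and all 3 of its probe sets fell. Scd, the desaturase that makes monounsaturated fatty acids, measured 833, 1118 and 974 in the HD cultures and 104, 92.8, 92.7 and 61.8 in the FBS cultures (-3.41 ± 0.35 log2, adjusted p = 2.2e-06). No FBS culture reached the lowest HD culture in these 3 genes. Lmnb1 and Tmpo, proteins of the nuclear lamina, fell by 3.33 and 2.74. Acat2 and Idi1, enzymes of the mevalonate pathway, both fell 7.69-fold. The remaining 5 were Epb41 (-3.25, 1 of 2 probe sets), a membrane skeleton protein, Scfd2 (-2.87), a member of the Sec1 family, Nell2 (-2.82), a secreted neural protein, the thrombospondin Thbs4 (-2.73), and Pik3r1 (-2.72), a regulatory subunit of phosphoinositide kinase. Nell2 varied most, from 21.9 to 134 between the FBS cultures, and did not pass when array 3r alone stood for FBS culture 3 (highest adjusted p over its 21 alternatives 0.0524).

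**Figure D1:**
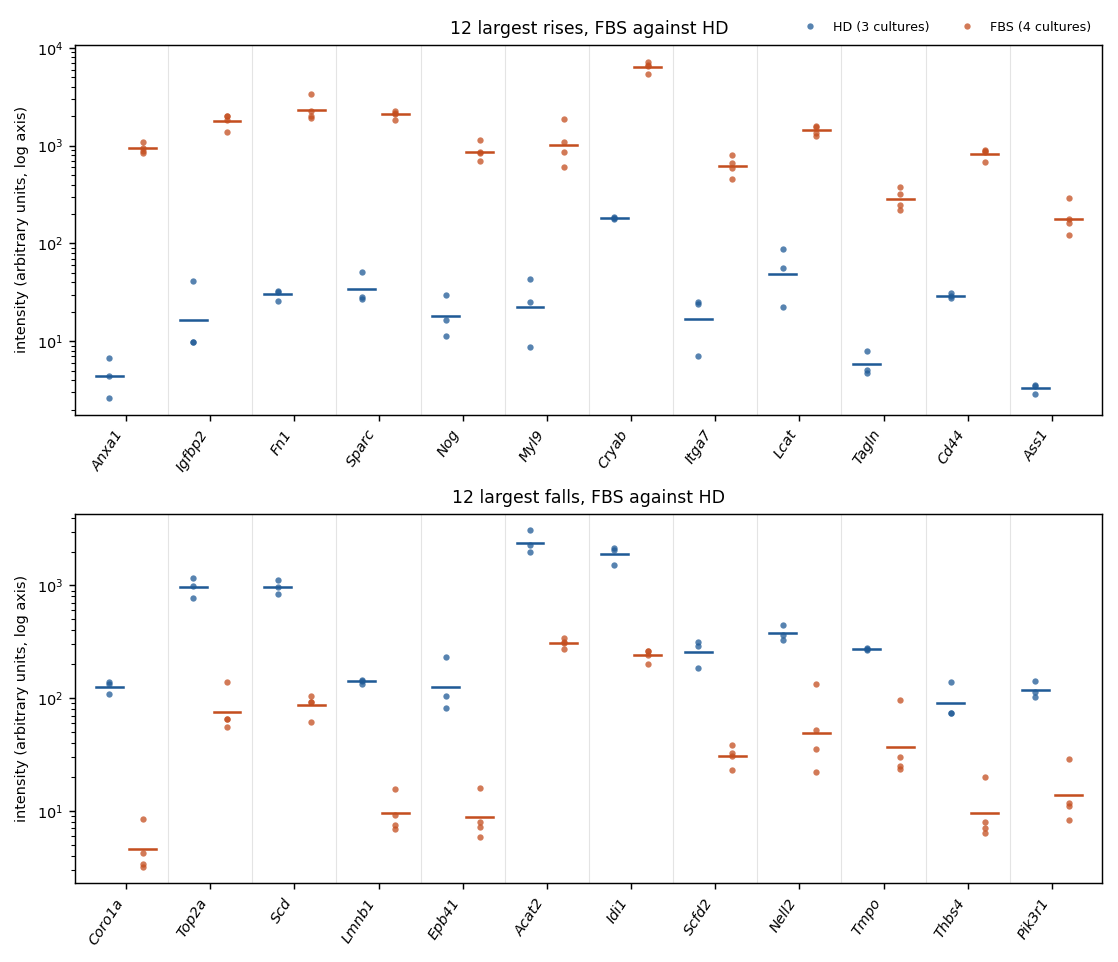
Intensity (arbitrary units, log axis) of the 12 largest rises (top) and 12 largest falls (bottom) of FBS against HD, for the probe set with the largest difference. Each point is a culture (3 HD, 4 FBS) and each bar the group mean on the log2 scale. The groups do not overlap in any of the 24 genes, which the rule for naming genes required.

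Astrocyte markers gave a mixed picture. Of 29 markers, 22 were measured: 7 rose (Cpe, Agt, S100b, Mt3, Clu, Glul and Ndrg2), 0 fell, and 15 did not pass, with a median difference of 0.27 against 0.05 over all genes. Gfap, the classical astrocyte filament, and Sox2, a progenitor factor, are not named by any probe set in the annotation and were not analysed here. S100b, a calcium-binding protein of astrocytes and of the oligodendrocyte lineage, measured 377, 483 and 651 in the HD cultures and 1498, 2413, 2138 and 1659 in the FBS cultures (1.93 ± 0.18 log2, adjusted p = 7.2e-07). Glul, glutamine synthetase, measured 884, 1011 and 1007 in the HD cultures and 1642, 2286, 1623 and 2594 in the FBS cultures (1.04 ± 0.17 log2, adjusted p = 0.0002), and all 4 of its probe sets rose. Mt3, the brain metallothionein, measured 419, 125 and 421 in the HD cultures and 633, 1085, 1324 and 1359 in the FBS cultures (1.89 ± 0.34 log2, adjusted p = 0.00052). Every FBS culture exceeded every HD culture in these 3 genes. The RA/Fsk cultures, labelled for neuronal derivation, also stood above HD in S100b, by 2.25 (limma adjusted p = 7.2e-07), and in Glul, by 0.68 (adjusted p = 0.016). Mt3 differed there by 0.83 without passing (adjusted p = 0.158). Agt, the angiotensin precursor that astrocytes secrete, and Cpe, a peptide-processing enzyme, rose by 1.99 and 2.18. The calls of Clu, a secreted chaperone (1.07 ± 0.37), and Ndrg2, a differentiation marker of astrocytes (0.85 ± 0.29), rested on adjusted p = 0.049 and 0.049. They held in 10 and 9 of 21 alternatives, and Clu lost its call without FBS culture 1, 2, 3 or 4 or HD culture 2 or 4, Ndrg2 without FBS culture 1, 2 or 3 or HD culture 1, 2 or 4, with adjusted p up to 0.161 and 0.184 over all alternatives.

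Several other astrocyte markers did not pass in their brightest probe set. Aldoc, the aldolase of astrocytes, measured 2283, 2138 and 3017 in the HD cultures and 2477, 2907, 2736 and 2226 in the FBS cultures (0.07 ± 0.16 log2, adjusted p = 0.852), with overlapping groups. Cst3, the protease inhibitor cystatin C, was bright in both groups, between 10252 and 15981 in HD and between 10499 and 13736 in FBS (0.04 ± 0.17). Slc1a3, the glutamate transporter GLAST, measured 240, 111 and 281 in the HD cultures and 342, 369, 359 and 361 in the FBS cultures. Its groups did not overlap, yet it missed the threshold (0.85 ± 0.31 log2, adjusted p = 0.062) and passed in 8 of 21 alternatives, one of them without HD culture 4. Apoe differed by 0.33 ± 0.20. The water channel Aqp4, at 4.40 to 9.10 in FBS and 9.47 to 11.6 in HD, and the gap junction protein Gja1, at 5.08 to 8.90 and 3.70 to 9.13, were dim in every culture. The brightest of 4 probe sets of the glutamate transporter Slc1a2 lay at 13.6 to 50.5 in FBS and 24.4 to 43.5 in HD, and 1 of the 4 rose. Against LD, with which the FBS cultures are also compared, Aldoc, Slc1a3 and Ndrg2 differed by 1.01, 1.97 and 2.43, beside 0.07, 0.85 and 0.85 against HD. HD minus LD was 0.94 for Aldoc (adjusted p = 0.013), 1.12 for Slc1a3 (adjusted p = 0.138) and 1.58 for Ndrg2 (adjusted p = 0.022). These 3 comparisons share their cultures.

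**Figure D2:**
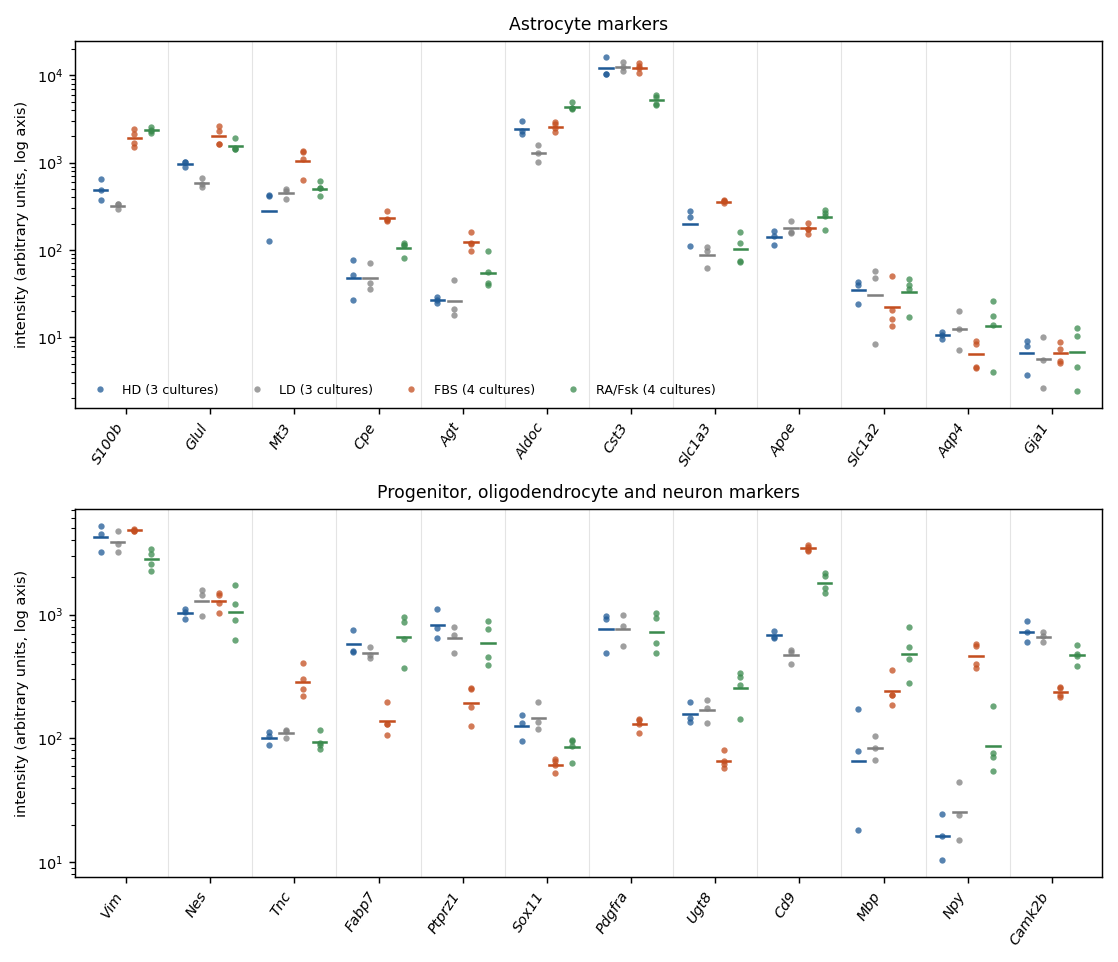
Intensity (arbitrary units, log axis) of astrocyte markers (top) and of progenitor, oligodendrocyte and neuron markers (bottom) in the HD (3), LD (3), FBS (4) and RA/Fsk (4) cultures. Points are cultures and bars group means on the log2 scale. S100b, Glul and Mt3 stand higher in FBS than in HD, Aldoc and Cst3 overlap, Aqp4 and Gja1 are dim in all groups, and Fabp7, Ptprz1 and Pdgfra stand lower in FBS. The RA/Fsk means of S100b and Glul are 2355 and 1554, beside HD means of 492 and 965.

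Progenitor markers moved in both directions: of 17 measured, 3 rose and 3 fell, with a median of -0.08. Fabp7, the fatty acid-binding protein of radial glia, measured 758, 505 and 503 in the HD cultures and 130, 196, 130 and 107 in the FBS cultures (-2.03 ± 0.27 log2, adjusted p = 3.4e-05). Ptprz1, a receptor phosphatase of progenitors, measured 1103, 643 and 772 in the HD cultures and 252, 256, 178 and 125 in the FBS cultures (-2.04 ± 0.30 log2, adjusted p = 7.6e-05, 1 of 2 probe sets). Both groups stood apart in each gene, and Sox11, a transcription factor of immature neural cells, fell by 0.97. The filament proteins did not pass: Vim, vimentin, measured 5199, 3173 and 4504 in the HD cultures and 4846, 4949, 4712 and 4728 in the FBS cultures (0.19 ± 0.18), and Nes, nestin, differed by 0.32 ± 0.26. In the Notch pathway, which holds progenitors back from differentiating, the receptor Notch1 differed by -0.38 ± 0.17 and its target Hes5 by -1.12 ± 0.43 without passing, while Hes1, another target, rose by 1.28. HD culture 2 lay at 27.0, beside 152 and 157 in HD cultures 1 and 4, and without it the difference was 0.50 and did not pass. Hes1 passed in 13 of 21 alternatives, and not without FBS culture 1, 2 or 3. Tnc, the matrix protein tenascin-C, rose by 1.46 ± 0.20, and the receptor Fgfr1 by 0.79 ± 0.27, with a call in 11 of 21 alternatives and none without FBS culture 1, 2 or 4 or HD culture 1 or 2. Of the 3 risers 1 passed without FBS culture 1 or 2 or HD culture 2, and 1 rose and 4 fell after median centring.

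Oligodendrocyte-lineage genes moved in both directions. Of 15 measured, 2 rose and 4 fell, with a median of 0.02 that turned to -0.17 after median centring. Pdgfra, the growth factor receptor of oligodendrocyte precursors, fell in 3 of its 4 probe sets and measured 919, 491 and 982 in the HD cultures and 110, 140, 132 and 144 in the FBS cultures in the brightest (-2.50 ± 0.28 log2, adjusted p = 4.4e-06). Ugt8, which makes myelin galactolipids, fell by 1.19, and the transcription factors Sox10 and Myrf by 0.79 and 0.65. Sox10 and Myrf passed in 12 and 10 of 21 alternatives, with adjusted p up to 0.104 and 0.182, and leaving out any 1 of the 7 cultures ended the call of Sox10, and any 1 other than FBS culture 1 that of Myrf. Cd9, a tetraspanin of glial membranes, rose and measured 660, 643 and 740 in the HD cultures and 3279, 3661, 3330 and 3494 in the FBS cultures (2.33 ± 0.14 log2, adjusted p = 5.6e-09). Mbp, myelin basic protein, rose by 1.80 ± 0.49, with HD values spread from 18.2 to 174. It did not pass without HD culture 1 or with array 3r alone for FBS culture 3 (adjusted p up to 0.0814). The list kept 2 falls without FBS culture 2, 3 or 4 or HD culture 4, and 1 rise and 2 falls without HD culture 1.

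Markers of other cell types were followed to see what the cultures held. Of 43 neuron genes, 10 rose and 4 fell (median 0.10, -0.09 after median centring). The summed intensity of the list ran from 7336 to 8493 in HD and from 7714 to 8429 in FBS. Npy, neuropeptide Y, measured 10.4, 24.6 and 16.2 in the HD cultures and 369, 397, 574 and 554 in the FBS cultures (4.46 ± 0.38 log2, adjusted p = 2.5e-07). Chgb, a granin of secretory granules, Nefm, a neurofilament protein, Calb1, a calcium buffer, and Nnat, neuronatin, rose by 3.33, 3.04, 2.65 and 1.91. The genes that fell were Camk2b (-1.60 ± 0.16), a synaptic kinase, Calb2 (-0.93 ± 0.16), Gap43 (-0.92 ± 0.21), a growth cone protein, and Mapt (-0.61 ± 0.18), the microtubule protein tau. Mapt passed in 17 of 21 alternatives and not without FBS culture 2 or HD culture 1 or 2 (adjusted p up to 0.0753). Without the dimmer 50% of probe sets 6 neuron genes rose. This setting leaves out dim genes of the list, Chgb and Calb1 among them.

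Few markers of microglia, fibroblasts or endothelium moved, but most were dim. Those that reached the overall median intensity in HD or FBS numbered 5 of 20, 6 of 19 and 5 of 13. The low counts of changed genes therefore do not show that these cell types were absent or unchanged. Of 20 microglia and macrophage genes, Ctss, a cathepsin, rose by 1.70 and Coro1a fell, and the summed list ran from 598 to 745 in HD and from 620 to 804 in FBS. Of 19 genes of fibroblasts, meningeal cells and pericytes, 2 rose: Postn, the matrix protein periostin, measured 3.23, 2.06 and 0.848 in the HD cultures and 170, 152, 115 and 105 in the FBS cultures (4.31 ± 0.36 log2, adjusted p = 2.1e-07), and Bgn, a small proteoglycan, rose by 2.72 ± 0.27. The fibrillar collagens on this list did not pass in their brightest probe sets. Col1a1 differed by 0.16 ± 0.28 (1 of 4 probe sets rose), Col1a2 by 0.37 ± 0.43 and Col3a1 by -0.10 ± 0.27. The proteoglycan Dcn differed by -0.27 ± 0.35 and did not pass. Col1a2, Col3a1 and Dcn lay below the overall median intensity in both groups, so their probe sets could show little. The summed level of this list ran from 612 to 772 in HD and from 1216 to 1478 in FBS. Much of such a sum can rest on single genes: the means were 69.9 and 488 for Bgn and 1.98 and 133 for Postn. Of 13 endothelial genes, Edn1, the peptide endothelin-1, rose by 2.24 ± 0.41, with sums of 475 to 712 in HD and 605 to 789 in FBS. The Schwann and neural crest list, with 12 genes measured, had 5 that rose and 2 that fell, and 1 fell when any 1 of the 7 cultures was left out. Its sums ran from 3157 to 3952 in HD and from 10936 to 11966 in FBS. Cryab, S100b and Egr2 belong to this list, and Cryab alone had means of 182 in HD and 6425 in FBS. Only 6 values in the whole table were 0, so an intensity above 0 does not show that a marker was present. The part of other cell types in the results was not tested.

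Genes induced in reactive astrocytes rose in 12 of 27 cases (44.4%, against 12.1% of all genes) and fell in 0, with a median of 0.62 against 0.05 over all genes. Besides Cryab and Cd44, these included Gbp2, an interferon-induced GTPase, with 16.0, 8.07 and 3.84 in the HD cultures and 177, 149, 148 and 233 in the FBS cultures (3.74 ± 0.44 log2, adjusted p = 7.9e-06). Emp1, a membrane protein of the PMP22 family, measured 47.5, 45.0 and 45.0 in the HD cultures and 513, 622, 377 and 1046 in the FBS cultures (3.56 ± 0.59 log2, adjusted p = 0.00025). Timp1, an inhibitor of matrix proteases, measured 434, 380 and 415 in the HD cultures and 959, 858, 907 and 970 in the FBS cultures, a smaller but very even rise (1.16 ± 0.11 log2, adjusted p = 8e-07). The groups stood apart in all 3. Ceruloplasmin (Cp), endothelin-1, the cytokine Il6 and the chemokine Ccl2 rose by 2.43, 2.24, 1.84 and 1.12. C3, Lcn2 and Serpina3n, secreted markers of the inflammatory reactive state, did not pass, at -0.28 ± 0.30, 0.16 ± 0.37 and 0.62 ± 0.45, and C3 and Lcn2 were dim in every HD and FBS culture, with a highest value of 12.2 for C3 and 12.1 for Lcn2. FBS culture 4 was the highest of the 4 in 11 of the 12 genes that rose.

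Interferon-response and antigen-presentation genes followed: 11 of 34 rose, 0 fell, and the median was 0.68. Ifitm3, an antiviral membrane protein, measured 57.5, 36.5 and 27.4 in the HD cultures and 631, 1168, 700 and 787 in the FBS cultures (4.20 ± 0.31 log2, adjusted p = 5.4e-08). The transcription factor Irf1 rose by 1.96 ± 0.22, and the adhesion molecule Vcam1 by 2.09 ± 0.38. Subunits of class I presentation rose, among them B2m, beta-2-microglobulin, with 901, 879 and 911 in the HD cultures and 2844, 2855, 2871 and 3113 in the FBS cultures (1.70 ± 0.25 log2, adjusted p = 9e-05), the class I gene RT1-M3-1 (2.23 ± 0.27), the immunoproteasome subunit Psmb8 (1.27 ± 0.25) and the proteasome activator Psme2 (1.55 ± 0.16). FBS and HD did not overlap in any of these genes. Without FBS culture 1 the list had 12 risers and 1 fall. Class I genes are close copies, so their probe sets may share signal, which was not tested.

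Extracellular matrix and adhesion genes rose in 25 of 68 cases and fell in 4, among them Thbs4 (median 0.54). Next to Fn1, Cd44 and Postn, the collagens Col2a1, Col12a1 and Col5a1 rose by 3.60, 2.90 and 2.70, and the laminin chains Lama5 and Lamc1 by 2.18 and 1.27. Itga1, a collagen-binding integrin subunit, measured 54.4, 60.5 and 45.7 in the HD cultures and 757, 451, 668 and 628 in the FBS cultures (3.41 ± 0.21 log2, adjusted p = 8.5e-09). Plat, the tissue plasminogen activator, measured 64.3, 56.2 and 53.7 in the HD cultures and 446, 559, 461 and 550 in the FBS cultures (3.01 ± 0.24 log2, adjusted p = 1.5e-07). Ccn1, a matricellular protein induced by serum, measured 26.0, 30.2 and 18.7 in the HD cultures and 750, 343, 501 and 590 in the FBS cultures (4.16 ± 0.28 log2, adjusted p = 1.9e-08), and in none of these did the groups meet. The proteoglycans of the brain went both ways. Ncan, neurocan, rose by 2.16 ± 0.22, and Cspg5, neuroglycan C, fell, with 1180, 398 and 1145 in the HD cultures and 225, 176, 323 and 242 in the FBS cultures (-1.77 ± 0.31 log2, adjusted p = 0.00037). Serpine2, an inhibitor of thrombin made by glia, fell by 0.73, not past the threshold without HD culture 1 or 4 (adjusted p up to 0.0667).

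Cytoskeletal genes of the serum response were among the lists with most risers: 25 of 41 rose and 2 fell, with a median of 0.81. S100a4, a calcium-binding partner of myosin, measured 48.1, 52.2 and 55.7 in the HD cultures and 1374, 1028, 1162 and 1391 in the FBS cultures (4.44 ± 0.23 log2, adjusted p = 1.3e-09). Pdlim1, a scaffold of actin fibres, measured 236, 192 and 259 in the HD cultures and 1708, 1536, 1863 and 2780 in the FBS cultures (3.05 ± 0.21 log2, adjusted p = 2.1e-08). Myl12a, a non-muscle myosin light chain, measured 443, 541 and 356 in the HD cultures and 2229, 1728, 1953 and 1741 in the FBS cultures (2.10 ± 0.18 log2, adjusted p = 2.4e-07). All 3 rose in every FBS culture beyond the HD range. Anxa2 rose by 2.44, Fhl2, a LIM-domain cofactor, by 2.65, Cald1, caldesmon, by 1.66, and Tpm1, a tropomyosin, by 1.12 with all 5 of its probe sets. Among the actins, Actg1 rose by 0.66 ± 0.13 (median-centred 0.47, adjusted p 0.10, not passed), while Actb differed by 0.03 ± 0.12 and smooth muscle actin Acta2 by 0.46 ± 0.20, neither passing. Of the 3 probe sets of Acta2, a dimmer one did rise, by 2.07 ± 0.35 (adjusted p = 0.00028). Ezr, which ties actin to the membrane, and Csrp2, a LIM protein, fell by 1.43 and 1.29.

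Serum response factor is known to bind the CArG box, so the promoters of these genes were read from RefSeq and searched on both strands (GRCr8, 250 bases before to 50 after each gene's start). A promoter was found for 19 of the 25 genes that rose, and 2 of them (10.5%) held a CArG box, beside 2 of 11 (18.2%) of the list's genes that did not pass, 1.78% of 3879 genes on the array and 1.64% of all 27457 promoters. Among the immediate early genes described next, 3 of 9 that rose held one, beside 2 of 10 that did not pass. The windows of Actg1, Fhl2 and Egr2, shown to let the match be read in a gene that rose, have it in capitals, 90 to 81, 95 to 86 and 83 to 74 bases before the start, printed 5′ to 3′ on the gene's strand. A match is a description, not a site or a cause.
Actg1, chr10:106121007-106121066, minus strand: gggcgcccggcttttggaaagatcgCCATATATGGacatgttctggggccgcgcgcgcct
Fhl2, chr9:52954601-52954660, minus strand: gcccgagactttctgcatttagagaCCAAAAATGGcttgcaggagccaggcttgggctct
Egr2, chr20:21054490-21054549, minus strand: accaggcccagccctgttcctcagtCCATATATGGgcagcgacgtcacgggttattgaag

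Immediate early genes, which cells switch on within minutes of serum and keep low at rest, stood higher in FBS: 14 of 30 rose and 2 fell, with a median of 0.95. Dusp1, a phosphatase that limits MAP kinase signalling, measured 27.7, 29.7 and 29.6 in the HD cultures and 402, 383, 322 and 402 in the FBS cultures (3.49 ± 0.37 log2, adjusted p = 3.4e-06). Egr2, a zinc-finger factor that also drives myelination in Schwann cells, measured 21.1, 25.7 and 9.32 in the HD cultures and 227, 608, 225 and 164 in the FBS cultures (3.59 ± 0.40 log2, adjusted p = 4.4e-06). Fos measured 293, 195 and 191 in the HD cultures and 1152, 945, 657 and 434 in the FBS cultures (1.73 ± 0.31 log2, adjusted p = 0.00053). The FBS cultures exceeded all HD cultures in each, although Fos and Egr1 varied among them, Egr1 from 217 to 713. Junb, Jun, Klf4, Cebpb and Egr1 rose by 2.53, 1.47, 2.66, 2.57 and 2.03. Myc, a growth-promoting factor of the same list, fell and measured 290, 554 and 462 in the HD cultures and 195, 129, 112 and 101 in the FBS cultures (-1.66 ± 0.25 log2, adjusted p = 9.9e-05). FBS culture 1 was the highest of the 4 for 8 of the 14 genes that rose, and 1 gene in place of 2 fell without FBS culture 3 or HD culture 4.

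DNA replication and mitosis genes fell: 34 of 44 (0 rose), with a median of -1.36, against 10.3% of all genes falling. The fall spanned the machinery. Mcm6, a subunit of the replicative helicase, measured 1830, 1694 and 1666 in the HD cultures and 467, 404, 443 and 450 in the FBS cultures (-1.96 ± 0.19 log2, adjusted p = 1.3e-06). Pcna, the sliding clamp of DNA polymerases, measured 4788, 3732 and 4417 in the HD cultures and 1558, 2117, 1876 and 1783 in the FBS cultures (-1.23 ± 0.21 log2, adjusted p = 0.00027). Cdk1, the kinase that starts mitosis, measured 1021, 738 and 1105 in the HD cultures and 262, 294, 286 and 241 in the FBS cultures (-1.78 ± 0.29 log2, adjusted p = 0.00018). No FBS culture reached an HD culture in any of them. Dut, which keeps uracil out of DNA, fell by 2.19, the polymerase subunit Pold1 by 2.09, cyclin B1 (Ccnb1) by 2.07 and the mitotic kinase Aurkb by 2.0. Kif11, a spindle motor, and Tyms, which makes thymidylate, differed by -1.37 ± 0.54 and -1.16 ± 0.48 without passing. Between the FBS cultures, culture 4 was the highest in 14 of the 34 genes, culture 1 in 8, culture 2 in 7 and culture 3 in 5. Tubulins and histones on the list are close copies of other genes, so their probe sets may share signal, which was not tested.

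A list of cell cycle regulators put together for exit from the cycle, holding kinase inhibitors and growth-arrest genes but also the D-type cyclins, had 9 risers and 0 falls among 16 measured, with a median of 0.58, and 6 risers after median centring. Gadd45a, a growth-arrest gene, measured 84.7, 79.3 and 70.0 in the HD cultures and 491, 486, 552 and 712 in the FBS cultures (2.75 ± 0.31 log2, adjusted p = 5.8e-06). Cdkn2b, an inhibitor of the cyclin D kinases, measured 30.8, 33.4 and 43.3 in the HD cultures and 175, 134, 131 and 245 in the FBS cultures (2.08 ± 0.32 log2, adjusted p = 0.00012). Cdkn1a, the inhibitor p21, measured 112, 97.3 and 84.5 in the HD cultures and 215, 219, 175 and 219 in the FBS cultures (1.05 ± 0.19 log2, adjusted p = 0.00064). The D-type cyclins Ccnd2 and Ccnd3, which drive entry into the cycle and not exit from it, were 2 of the 9 and rose by 2.94 and 1.12, and Ccng1 rose by 1.23. Ccnd2 measured 477, 166 and 457 in the HD cultures and 2321, 2284, 3333 and 2492 in the FBS cultures, so its FBS cultures lay far above all HD cultures while the replication genes were lower.

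**Figure D3:**
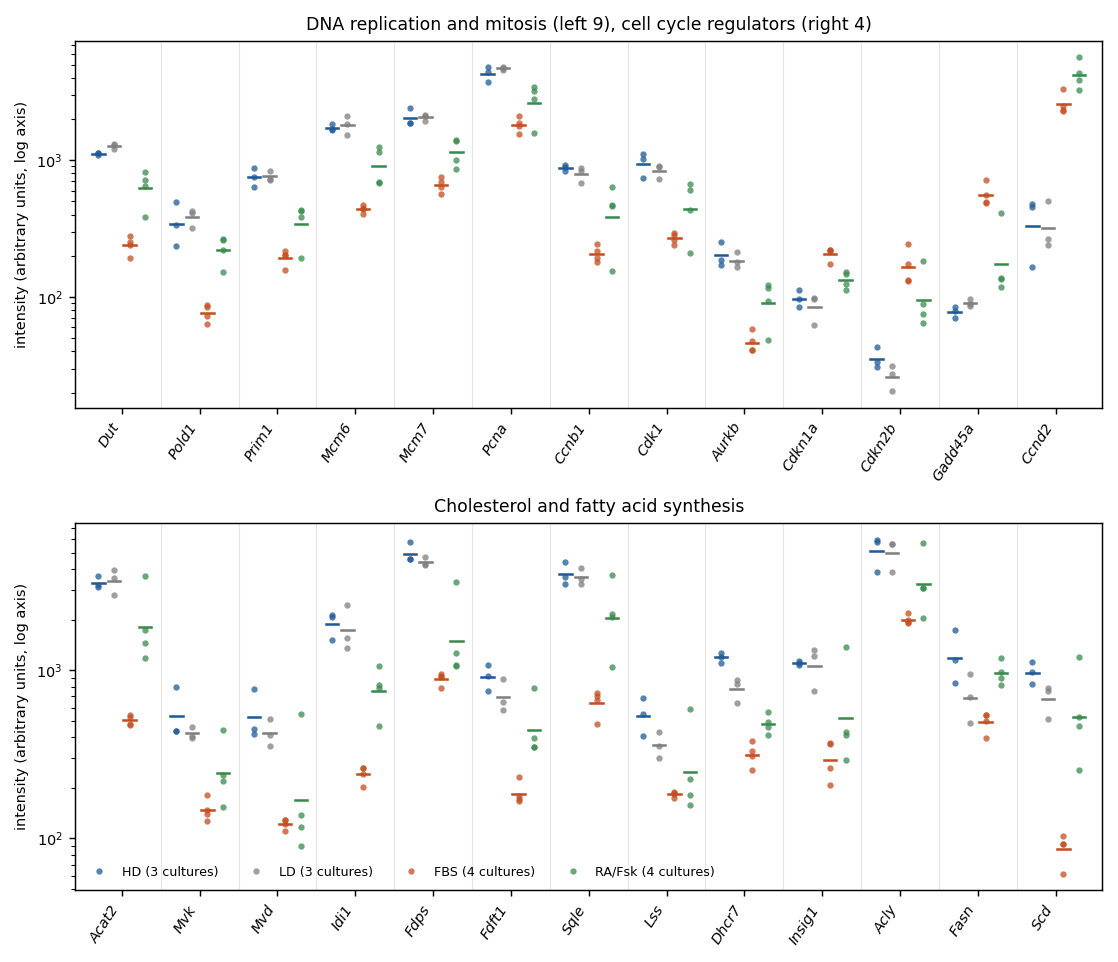
Intensity (arbitrary units, log axis) of replication and mitosis genes and of cell cycle regulators (top) and of sterol and fatty acid synthesis genes (bottom) in the HD (3), LD (3), FBS (4) and RA/Fsk (4) cultures. Points are cultures and bars group means on the log2 scale. The FBS cultures stand below the HD cultures in the 9 replication and mitosis genes and in the 13 lipid genes, and above them in the 4 regulators Cdkn1a, Cdkn2b, Gadd45a and Ccnd2.

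E2F factors are known to control replication genes, so their promoters were searched on both strands for TTTCGCGC, TTTGGCGC and TTTCCCGC, and a match of one may overlap a match of another. Of 30 genes that fell and had a promoter in the table, 7 held a match (23.3%), beside 1 of 8 (12.5%) of the list's genes that did not pass, 2.60% of genes on the array and 1.82% of all promoters. The CCAAT box (CCAAT or its reverse ATTGG) was in 73.3% of the genes that fell, 62.5% of those that did not pass and 38.3% of genes on the array. The windows of Mcm7, a helicase subunit that fell by 1.62, and Cdk1 (GRCr8, RefSeq) show the E2F match in capitals, 52 to 45 and 133 to 126 bases before the start. The Mcm7 promoter holds another match 233 to 226 bases before the start. Both are printed 5′ to 3′ on the gene's strand.
Mcm7, chr12:22163198-22163255, minus strand: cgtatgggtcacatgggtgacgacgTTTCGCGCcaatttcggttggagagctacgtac
Cdk1, chr20:19265135-19265192, plus strand: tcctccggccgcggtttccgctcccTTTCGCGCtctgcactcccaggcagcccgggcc

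Sterol synthesis had the lowest median of the 29 lists. Of 27 genes of cholesterol and fatty acid synthesis, 20 fell and 1 rose, with a median of -1.52. The fall ran along the mevalonate pathway from Acat2 and Idi1 to Fdps, farnesyl diphosphate synthase, which measured 4562, 5764 and 4560 in the HD cultures and 954, 913, 924 and 782 in the FBS cultures (-2.46 ± 0.28 log2, adjusted p = 6.9e-06). Fdft1, squalene synthase, measured 754, 1067 and 922 in the HD cultures and 171, 230, 166 and 178 in the FBS cultures (-2.26 ± 0.24 log2, adjusted p = 3.6e-06), and all 4 of its probe sets fell. Sqle, squalene epoxidase, measured 3246, 4389 and 3583 in the HD cultures and 701, 663, 727 and 482 in the FBS cultures (-2.54 ± 0.28 log2, adjusted p = 5.4e-06). The groups stood well apart at each step. Dhcr7, which makes the last step to cholesterol, fell by 1.90, and Insig1, the sterol-sensing retention protein that is itself a target of the sterol-regulated factor SREBP, by 1.90. In fatty acid synthesis Acly, Fasn and Acaca fell by 1.35, 1.27 and 1.52, Acaca not past the threshold without HD culture 2 (adjusted p 0.0678). HD culture 2 was the highest HD culture in 16 of the 20 genes that fell. Me1, malic enzyme, rose by 0.92 ± 0.27 and did not pass without FBS culture 1 or HD culture 1 or 4, or after median centring or quantile normalization (adjusted p up to 0.152 over its 21 alternatives).

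Lipid carriers and handlers went both ways, with 6 risers and 5 falls among 24 (3 risers without HD culture 2 or without HD culture 4). Lcat rose, as described, and Lipa, the lysosomal enzyme that frees cholesterol from lipoproteins, measured 93.7, 107 and 101 in the HD cultures and 401, 357, 370 and 437 in the FBS cultures (1.90 ± 0.16 log2, adjusted p = 2.3e-07). Apod, a lipocalin of glia, measured 487, 649 and 485 in the HD cultures and 148, 196, 133 and 137 in the FBS cultures (-1.79 ± 0.19 log2, adjusted p = 3.9e-06). Scarb1, a receptor for high-density lipoprotein, fell by 1.31, with all 3 of its probe sets.

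Ribosomal proteins fell in 33 of 37 cases (0 rose) by small and even amounts: the median was -0.75, and it ran from -0.95 to -0.48 over the alternatives. Rps10 measured 5355, 5503 and 5653 in the HD cultures and 2773, 2400, 2565 and 2639 in the FBS cultures (-1.09 ± 0.13 log2, adjusted p = 1.2e-05); Rplp0 measured 12722, 14071 and 14765 in the HD cultures and 8104, 8570, 10188 and 9706 in the FBS cultures (-0.60 ± 0.15 log2, adjusted p = 0.0087). Both sets of cultures were tight and did not meet. Many of these genes have processed copies that can share a probe set's signal, which was not tested. Of 47 oxidative phosphorylation genes 40 had a negative difference, and the median was -0.23. In this list 23.4% changed, beside 22.4% of all genes. All these calls were falls: 11 fell and 0 rose, where 10.3% of all genes fell. That count ran from 4, without HD culture 1, to 18, after median centring, and was 5 to 7 when any other of the 7 cultures was left out. After quantile normalization 12 fell and 5 rose. Cyc1, cytochrome c1, fell by 0.59. Glycolysis had 2 risers and 2 falls among 23 genes, and the proteasome 1 and 3 among 22, near the background, with medians of -0.00 and -0.07. The glycolysis list had 1 fall without FBS culture 2 or 4 or HD culture 4. Set against LD, the median of the glycolysis list was 0.44, and HD minus LD was 0.35. These comparisons share the FBS and the HD cultures.

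In TGF-beta and BMP signalling, which steers progenitors toward astrocytes, 16 of 42 genes rose and 2 fell, with a median of 0.72. Among ligands, Tgfb1 measured 7.12, 7.90 and 5.39 in the HD cultures and 68.0, 85.8, 48.3 and 75.6 in the FBS cultures (2.64 ± 0.28 log2, adjusted p = 2.6e-06), Tgfb3 rose by 1.16 ± 0.21, and Bmp7 fell, with 292, 256 and 356 in the HD cultures and 49.7, 54.4, 27.1 and 81.1 in the FBS cultures (-2.47 ± 0.27 log2, adjusted p = 3.6e-06). Bmp4 rose by 1.77 ± 0.52, not past the threshold without FBS culture 1 or 4 or HD culture 4 (adjusted p up to 0.128). The receptor Acvr2b fell by 0.98, and not past it without HD culture 2 or 4 (up to 0.0562), which left 1 fall in the list. Secreted inhibitors rose beside Nog: Grem1, gremlin, measured 5.59, 7.30 and 5.37 in the HD cultures and 131, 168, 132 and 166 in the FBS cultures (3.79 ± 0.25 log2, adjusted p = 1.6e-08), and Nbl1 rose by 2.30 ± 0.25. Fstl1, a secreted follistatin-like protein, rose by 2.74 ± 0.25. Pmepa1, an inhibitor induced by TGF-beta, measured 240, 184 and 165 in the HD cultures and 3830, 2205, 2984 and 2191 in the FBS cultures (3.78 ± 0.25 log2, adjusted p = 1.5e-08), and Smad7, the inhibitory SMAD, rose by 1.53 ± 0.36 from dim values of 5.39 to 8.88. The groups did not meet in any of these inhibitors. The BMP targets Id1, Id2 and Id3, which hold back differentiation, rose by 1.17, 1.0 and 1.34. Id1 did not pass without FBS culture 1 or HD culture 1, or after median centring, and Id3 not without HD culture 1 (up to 0.112 and 0.109).

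Of 13 genes of the insulin-like growth factor system 3 rose, all of them binding proteins: Igfbp2, Igfbp3, with 175, 106 and 141 in the HD cultures and 1314, 1050, 1276 and 1238 in the FBS cultures (3.10 ± 0.21 log2, adjusted p = 1.8e-08), and Igfbp5 (2.01 ± 0.44). The receptor Igf1r differed by 0.05 ± 0.34 and did not pass. In this list 23.1% of genes changed, beside 22.4% of all genes (12.1% upward). In FGF, PDGF, EGF and neurotrophin signalling 10 of 44 genes rose and 1, Pdgfra, fell. The share of this list that changed in either direction was near the 22.4% of all genes. All but 1 of its calls were rises, where 12.1% of all genes rose. Between 5 and 13 genes of the list rose over the alternatives. The count was 5 without HD culture 1 or 2 or after median centring, and 6 without FBS culture 2 or 4. Ligands that rose included the EGF-family members Areg, with 12, 17.6 and 7.68 in the HD cultures and 63.4, 66.7, 64.6 and 91.5 in the FBS cultures (2.16 ± 0.36 log2, adjusted p = 0.00023), and Hbegf (1.97 ± 0.22), and the platelet-derived growth factor Pdgfa (1.62 ± 0.16), whose receptor Pdgfra was lower. Notch, Wnt and Hedgehog genes changed in 4 of 23 cases, 3 up and 1 down, near the background: besides Hes1, the Wnt receptor Fzd1 rose by 1.01 ± 0.21, Gsk3b by 0.76 ± 0.23 and the stem cell receptor Lgr5 fell, with 72.0, 97.1 and 57.5 in the HD cultures and 28.0, 22.0, 8.93 and 8.50 in the FBS cultures (-1.96 ± 0.37 log2, adjusted p = 0.00082). The list had 1 riser without FBS culture 1 or 3, 2 risers and 2 falls without HD culture 2, and 1 riser and 3 falls after median centring or quantile normalization, so that its balance depends on the scaling. Gsk3b did not pass without FBS culture 1 or 3 or HD culture 1 or 4, or after either rescaling (adjusted p up to 0.173 over its 21 alternatives).

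**Figure D4:**
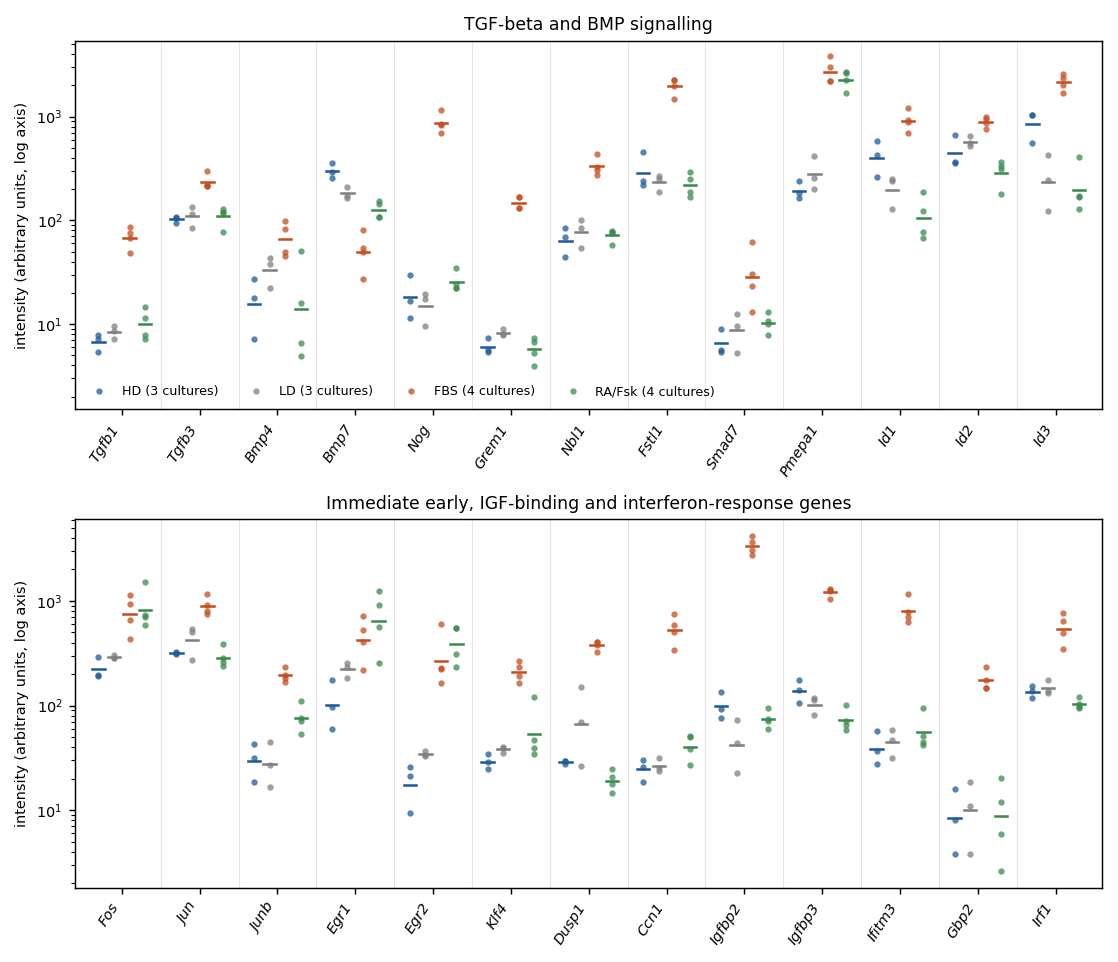
Intensity (arbitrary units, log axis) of TGF-beta and BMP pathway genes (top) and of immediate early, IGF-binding and interferon-response genes (bottom) in the HD (3), LD (3), FBS (4) and RA/Fsk (4) cultures. Points are cultures and bars group means on the log2 scale. All genes shown stand higher in FBS than in HD except Bmp7, which stands lower. The RA/Fsk means of Pmepa1, Fos, Egr1 and Egr2 are 2278, 823, 639 and 386, beside HD means of 194, 222, 100 and 17.6.

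Enzymes of oxidant and metal defence rose in 14 of 34 cases and fell in 3 (median 0.21, and 13 and 5 after median centring). Nqo1, a quinone reductase and target of the oxidant sensor NRF2, measured 72.8, 93.0 and 60.8 in the HD cultures and 1247, 1057, 1206 and 1448 in the FBS cultures (3.96 ± 0.66 log2, adjusted p = 0.00025). Hmox1, heme oxygenase, measured 205, 467 and 168 in the HD cultures and 3153, 1471, 2173 and 2421 in the FBS cultures (3.11 ± 0.59 log2, adjusted p = 0.00082), and Sod3, the extracellular superoxide dismutase, rose by 2.66 ± 0.36. The groups were apart in all of these, though HD culture 2 was the highest HD culture in each. Cat, catalase, and Prdx6, a peroxiredoxin, rose by 1.60 and 0.97, while Gstp1, a glutathione transferase that was bright in both groups, fell by 0.88. Chaperones rose in 10 of 30 cases and fell in 4: the endoplasmic reticulum chaperones Hspa5 and Calr rose by 1.27 ± 0.21 and 1.19 ± 0.19 and the inducible heat shock protein Hspa1a by 2.81 ± 0.40, whereas the mitochondrial pair Hspd1 and Hspe1 fell by 0.67 and 0.96. The medians were 0.24 for chaperones and 0.05 for all genes.

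Lysosomal genes rose in 13 of 21 cases (0 fell, median 0.73, and 9 rose after median centring). Ctsl, cathepsin L, measured 199, 171 and 183 in the HD cultures and 711, 803, 827 and 766 in the FBS cultures (2.05 ± 0.18 log2, adjusted p = 4.2e-07), Ctsd rose by 1.10 ± 0.18, and Lamp1, the main protein of the lysosomal membrane, by 1.60 ± 0.20 in 1 of its 4 probe sets. Of 29 transporters and enzymes of astrocyte metabolism, 6 rose and 1 fell (median -0.02), so 24.1% changed, beside 22.4% of all genes. Glud1, glutamate dehydrogenase, measured 816, 962 and 848 in the HD cultures and 1776, 1647, 1800 and 1731 in the FBS cultures (0.99 ± 0.16 log2, adjusted p = 0.00015). Atp1b1, a subunit of the sodium pump, rose by 1.48 ± 0.16, and the water channel Aqp1, which is typical of choroid plexus rather than of astrocytes, by 1.83 ± 0.44. Got1, an aminotransferase, fell by 1.23.

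**Figure D5:**
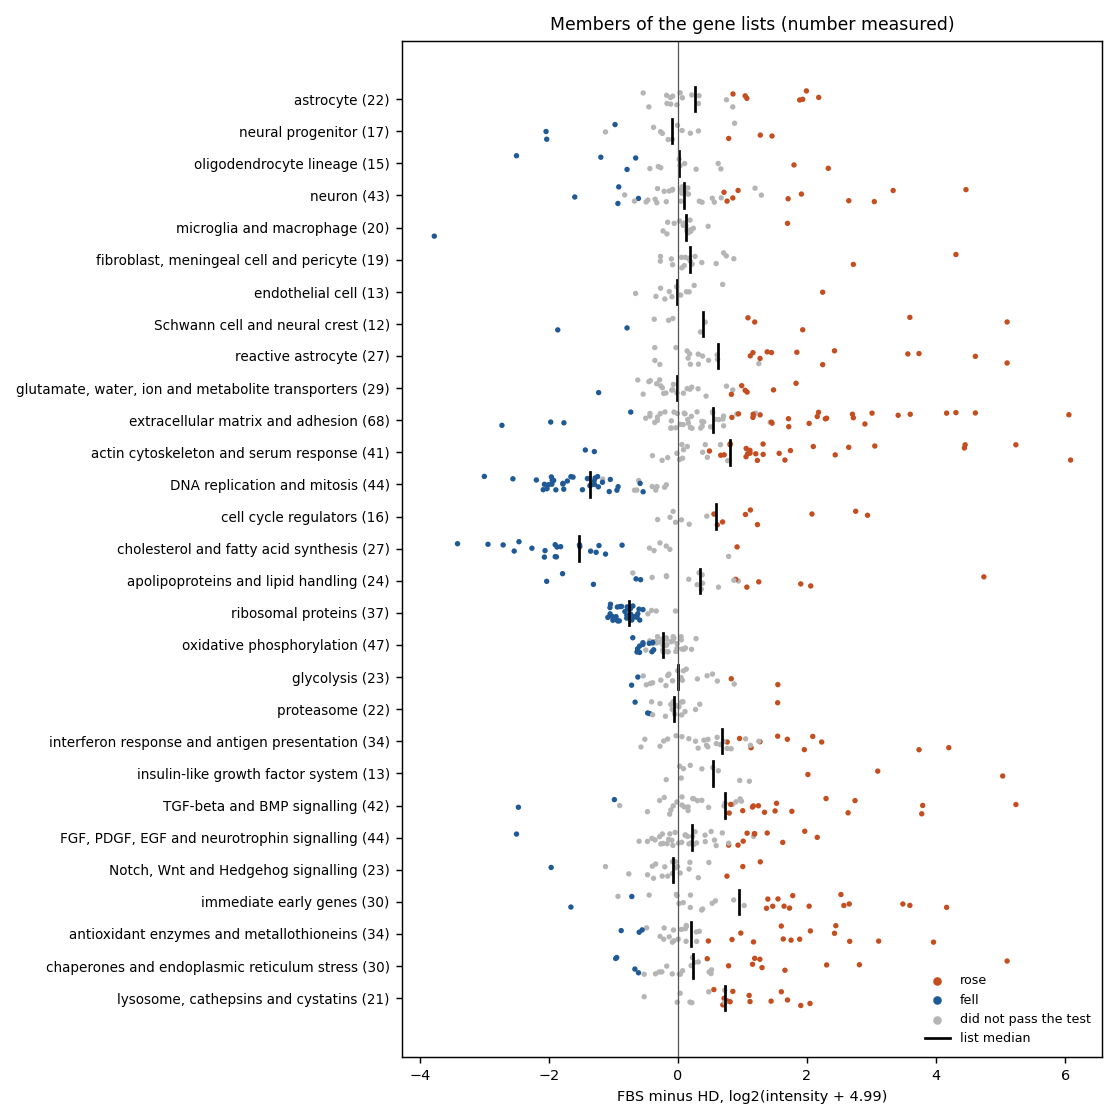
FBS minus HD, in log2(intensity + 4.99), for each measured member of the 29 gene lists, with the number measured in brackets. Each point is a gene (brightest probe set), coloured by whether it rose, fell or did not pass the test, and the black bar is the list median. The medians run from -1.52 for cholesterol and fatty acid synthesis and -1.36 for replication and mitosis to 0.81 for the actin list and 0.95 for immediate early genes, beside 0.05 over all genes.

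The same lists were set against LD, the untreated low-density cells. The median of the replication list was -1.36 against HD and -1.19 against LD, and HD minus LD was 0.01. For sterol and fatty acid synthesis the 3 medians were -1.52, -1.31 and 0.17, for ribosomal proteins -0.75, -0.95 and -0.16, and for the actin list 0.81, 0.92 and -0.04. Cav1, the coat protein of caveolae, differed by 1.21 between FBS and HD, by 2.98 between FBS and LD and by 1.77 between HD and LD (adjusted p = 0.016). Its difference from HD did not pass without HD culture 1 (adjusted p 0.0768). Id3 differed by 1.34, 3.15 and 1.81 (adjusted p = 0.050 for HD against LD). Each pair of these comparisons shares cultures, so their likeness is no separate result.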

How the data were processed

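RNA was measured on 20 oligonucleotide arrays. The authors deposited 1 linear intensity per probe set and array; its computation is not given in the sources used here. Their near-equal trimmed means show arrays scaled to 1 level. Values of 8799 probe sets were read as log2(intensity + 4.99), the offset being 10% of the median positive value of 49.9, and 59 control probe sets were left out, which left 8740. Of these, 7006 had 1 gene symbol, 308 several and 1426 none, covering 4736 genes. Arrays of a culture were averaged, and limma 3.58.1 in R 4.3.3 (lmFit, eBayes with an intensity trend) was fitted to all 4 groups, with 10 residual degrees of freedom, 6.13 prior ones and a median SE of 0.28. The fit was tested on simulated data. Changed means a Benjamini-Hochberg adjusted p under 0.05 over all probe sets. The number of arrays limits the precision.

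Named genes were the 12 largest rises and 12 largest falls among called probe sets with 1 symbol, a brighter group that reached the overall median value and separate group ranges, then up to 5 members per list with the smallest adjusted p, and set markers. Other genes were picked as examples after their values were seen. The members and lists were chosen with earlier results of these data known, and the promoter sets for immediate early and sterol genes were added afterwards. Of the alternatives, 21 were run. Promoters are those of RefSeq on GRCr8.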

Additional observations from a re-analysis of the deposited data

Results flagged for a closer look

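In 9 of the genes named, 1 of the 4 FBS cultures lay far from the other 3, with a gap to the nearest that took up most of the group's range on the log2 scale. This was looked for in 201 genes, and chance alone flags about 1 in 20 groups, so the 9 flagged are no more than that share. The genes are listed as a description only. FBS culture 4 was the far one in 6 of them. It was the highest for the nuclear lamina gene Tmpo (gap 0.839 of the range), B2m (0.895), Tgfb3 (0.911) and Areg (0.864), and the lowest for Hes1 (0.909) and Serpine2 (0.880). FBS culture 1 was the highest for Myrf (0.858), and FBS culture 3 the lowest for Cdkn1a (0.919) and the highest for Pttg1 (0.912). Tmpo measured 97.1 in FBS culture 4 and 23.4 to 29.9 in the other FBS cultures, for the probe set with the largest fall, and in its brightest probe set culture 4 was the lowest, at 123 beside 146 to 221. B2m ran from 2844 to 3113 and Hes1 from 180 to 240.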

How the results depend on the processing

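The count of changed probe sets stayed within 1.5 times the 1832 reported under the 21 alternatives, from 1523 without HD culture 4 to 2431 with each array as its own sample. Leaving out 1 culture gave 1523 to 1671. Counts of list members that move by over 1.5 times without 1 culture stand beside the lists. Among other settings, the proteasome had 5 falls in place of 3 with array 3 alone or with FBS and HD alone in the fit, glycolysis 4 risers and 4 falls in place of 2 and 2 with FBS and HD alone or each array as its own sample, and FGF and related signalling 3 falls in place of 1 after median centring. Median centring gave 1860 (722 rose, 1138 fell) and quantile normalization 1851 (870 and 981). The labels do not say whether title numbers pair the samples. The correlations of deviations between same-numbered HD and FBS cultures were -0.041, -0.052 and 0.056, beside -0.089 to 0.143 between differently numbered ones. With so few cultures, each centred on its own group mean, these values cannot exclude a pairing. The replicate block gave 1896 changed (1046 and 850). Of 200 genes named or tabulated that passed, 176 passed under every alternative that gave a value. Over 4934 gene values under alternatives, 4738 kept direction and side of the threshold, 111 lost the call and 53 gained it. The other 32 changed sign: they belong to 12 genes, Aldoc, Cst3, Actb and Vim among them, that passed neither way, and no gene changed direction with a call on either side. Calls lost with a single culture left out are given beside the genes the report names. With the median over a gene's probe sets in place of the brightest, no list median changed sign, and the Schwann list moved most, from 0.39 to 0.66. The cause of each lost call was not tested. Dim genes are limited by background: their differences shrink with a larger offset.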

Other observations

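Genes outside the lists, picked after their values were seen and therefore given only as examples, also differed between FBS and HD. Anxa5, an annexin like Anxa1, measured 156, 213 and 178 in the HD cultures and 1933, 2317, 2050 and 1859 in the FBS cultures (3.46 ± 0.15 log2, adjusted p = 1.2e-10), and both of its probe sets rose. Enpp2, autotaxin, which makes lysophosphatidic acid, measured 118, 98.9 and 106 in the HD cultures and 748, 1165, 938 and 736 in the FBS cultures (2.98 ± 0.33 log2, adjusted p = 4.7e-06). Prnp, the prion protein, rose by 2.21 ± 0.16, and Nppb, the natriuretic peptide BNP, by 3.40 ± 0.44. Casp1, the caspase that processes interleukin-1, rose by 2.53 ± 0.26, and all 3 of its probe sets rose. Among the falls, Cntn1, a neural adhesion molecule, measured 1997, 2611 and 2958 in the HD cultures and 432, 641, 443 and 370 in the FBS cultures (-2.42 ± 0.20 log2, adjusted p = 2.3e-07). Dnmt1, which copies DNA methylation after replication, and Pttg1, securin, which holds sister chromatids together until anaphase, fell by 2.0 and 1.96. Idh2, the mitochondrial isocitrate dehydrogenase that makes NADPH, fell by 1.94. FBS and HD cultures did not overlap in any of these genes, and all of them passed the limma test under each of the 21 alternatives.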
